A study of Mus musculus with 6 samples.

Results

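The ISG15 conjugation pathway was examined in bone marrow-derived macrophages (BMDMs) through 5 genes of the deposited expression table, picked by symbol as the known components of the pathway, with earlier results of these data known. The members were Isg15, Uba7, Ube2l6, Herc6 and Usp18, and all 5 were found among the 54532 genes listed and passed the filter on low values. BMDMs are myeloid cells grown from mouse marrow. The study's methods describe the starting cells as monocytes of C57BL/6 mice kept in serum-containing medium, and name no growth factor. Before RNA was taken, they shared a culture with ID8, a cell line of mouse ovarian cancer. The ID8 cells had been pretreated either with cisplatin (40 µM), which damages DNA by forming platinum crosslinks, or with phosphate-buffered saline (PBS). Each group held 3 libraries, referred to below as cisplatin and PBS, and no genetic change or other agent separates them in the labels. All 6 libraries came from co-cultures, so BMDMs kept without ID8 cells are not part of the comparison. The length of the co-culture is not given in the sources used here. The study's methods speak of biological replicates without saying whether the libraries of a group came from separate cultures or animals. The p-values measure the spread between these libraries.

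ISG15 is a small ubiquitin-like protein that interferons induce strongly in most cells, macrophages included. It is attached to other proteins by a chain of enzymes that parallels ubiquitination. Uba7 encodes the activating enzyme (E1), Ube2l6 the conjugating enzyme (E2) and Herc6 the main ligase (E3) of the mouse, while Usp18 encodes a protease that removes ISG15 again and also restrains signalling from the type I interferon receptor. Free ISG15 is also secreted and acts on leukocytes.

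The promoters of the members were taken first, since genes of this pathway are textbook targets of the interferon-stimulated response element (ISRE), which interferon regulatory factors and the STAT-containing complex bind. Promoter sequences of RefSeq on GRCm38.p6, running from 250 bases before to 50 bases after the annotated start, were matched for 4 of the 5 members, Isg15, Uba7, Ube2l6 and Herc6. They are printed 5′ to 3′ on the strand of the gene, with capitals where either strand matches the ISRE core TTTCNNTTT. Those of Isg15 (chr4:156200769-156201068, minus strand) and Uba7 (chr9:107975317-107975616, plus strand) hold such a match, and those of Ube2l6 (chr2:84798578-84798877, plus strand) and Herc6 (chr6:57580742-57581041, plus strand) are shown beside them.
Isg15: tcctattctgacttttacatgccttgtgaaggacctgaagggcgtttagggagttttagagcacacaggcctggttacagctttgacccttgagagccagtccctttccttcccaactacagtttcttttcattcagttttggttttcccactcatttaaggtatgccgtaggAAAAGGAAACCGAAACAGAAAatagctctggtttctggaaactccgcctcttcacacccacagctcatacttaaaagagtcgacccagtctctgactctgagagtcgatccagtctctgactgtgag
Uba7: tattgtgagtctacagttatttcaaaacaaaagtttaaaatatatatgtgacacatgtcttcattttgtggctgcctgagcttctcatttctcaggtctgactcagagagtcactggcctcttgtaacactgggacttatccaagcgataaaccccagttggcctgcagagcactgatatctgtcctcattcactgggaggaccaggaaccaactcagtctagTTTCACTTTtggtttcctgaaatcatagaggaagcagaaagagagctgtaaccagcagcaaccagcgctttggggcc
Ube2l6: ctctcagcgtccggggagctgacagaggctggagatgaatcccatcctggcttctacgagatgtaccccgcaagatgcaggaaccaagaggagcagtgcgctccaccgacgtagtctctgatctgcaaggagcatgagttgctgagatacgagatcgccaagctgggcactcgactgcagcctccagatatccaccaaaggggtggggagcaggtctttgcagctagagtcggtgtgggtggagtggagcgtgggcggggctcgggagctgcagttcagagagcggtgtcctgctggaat
Herc6: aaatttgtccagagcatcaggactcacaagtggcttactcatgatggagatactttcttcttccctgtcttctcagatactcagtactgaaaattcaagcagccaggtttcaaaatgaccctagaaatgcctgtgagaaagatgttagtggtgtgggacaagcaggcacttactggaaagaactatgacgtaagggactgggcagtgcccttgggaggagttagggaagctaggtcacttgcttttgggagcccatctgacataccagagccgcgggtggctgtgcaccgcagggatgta

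In the Isg15 promoter 3 matches overlapped in tandem on the strand opposite to the gene. Counting the start base as 0, they ran from -77 to -69, from -71 to -63 and from -65 to -57. The Uba7 promoter had 1 match on the strand of the gene, from -27 to -19. No match was found in the windows of Ube2l6 and Herc6, which says only that these letters are absent there. The core was present in 2 of 4 member promoters and in 10.55% of all 32851 promoters of the table. Neither the gamma-activated site TTCNNNGAA nor the ETS-IRF composite GGAANNGAA, which shares letters with the ISRE core, occurred in the 4 windows, against 8.298% and 8.243% of all promoters. Among the tested genes with a promoter in the table, 16.19% of the 939 with an ISRE core were called lower with cisplatin, against 10.82% of the 8401 without one. The shares called higher were 5.96% and 4.14%, so both directions were more frequent with the core, and the median log2 fold changes were -0.048 and -0.017. The Usp18 promoter was not analysed here.

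Levels are given as FPKM, fragments normalised for both the length of the gene and the depth of the library, so that they can be compared between genes. Fold changes are cisplatin against PBS on the log2(FPKM + 1) scale, and a gene was called when its adjusted p was under 0.05 and its log2 fold change was at least 1 in size. Reads recovered from the FPKM values summed to between 15776238 and 17924686 per library. The depth used in the FPKM was 97.45% to 98.74% of these reads in the PBS libraries and 103.7% to 104.1% in the cisplatin libraries. FPKM with cisplatin are thus somewhat lower, relative to PBS, than the recovered reads would give. Over the 13441 genes tested, log2 values correlated with Pearson's r between 0.984 and 0.989 within groups and between 0.871 and 0.877 across them. By the limma test 1514 genes were called lower and 628 higher, and limma voom on the recovered reads gave 1862 and 1227. Voom took the sum of the recovered reads as depth, and its median log2 fold change over all tested genes was 0.085, against -0.0011 in the main test.

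All 5 members were lower with cisplatin and all 5 were called. Of all tested genes 11.3% were called lower and 4.67% higher. In each member the 3 cisplatin libraries lay below the 3 PBS libraries, a separation found for 37.2% of all tested genes in this direction and for 35.2% in the other. The median log2 fold change of the members was -2.06, against -0.0011 over all tested genes. Summed over the members, the level fell from between 482 and 539 FPKM in the PBS libraries to between 79.6 and 82.0 FPKM in the cisplatin libraries, which left 15.5% of the PBS mean. In bulk RNA, fewer cells that express these genes and less RNA per cell cannot be told apart.

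Isg15, the modifier itself (ENSMUSG00000035692, chromosome 4, 156199424 to 156200818, GRCm38), was the most abundant member and changed the most. Its level was 353, 300 and 355 FPKM in PBS replicates 1, 2 and 3 and 34.5, 36.25 and 35.6 FPKM in the cisplatin replicates. PBS replicate 2 was the lowest of its group and still lay far above every cisplatin library. The means were 335.7 ± 31.1 and 35.5 ± 0.87 FPKM (SD, n = 3 each), so that 10.6% of the PBS level was left, with 9.74% and 12.1% as the extremes over the pairs of libraries. The log2 fold change was -3.20 (SE 0.069, 95% interval -3.37 to -3.04, limma adjusted p = 1.05e-07), the 56th largest fall among the tested genes. With PBS 69 tested genes had a higher mean level than Isg15, and with cisplatin 1403 had.

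Uba7, which encodes the E1 that activates ISG15 (ENSMUSG00000032596, chromosome 9, 107975505 to 107984060), changed the least. It was measured at 32.5, 33.0 and 31.95 FPKM in the PBS replicates and at 12.0, 10.4 and 11.2 FPKM in the cisplatin replicates. The groups did not overlap, and the relative spread was wider with cisplatin (coefficient of variation 6.97%) than with PBS (1.67%). From 32.5 ± 0.54 to 11.2 ± 0.78 FPKM (SD, n = 3 each), 34.55% of the PBS level was left, and the log2 fold change was -1.46 (SE 0.054, 95% interval -1.58 to -1.33, limma adjusted p = 9.10e-07). The single ISRE core of its promoter lies close before the RefSeq start.

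Ube2l6, which encodes the E2 that carries ISG15 (ENSMUSG00000027078, chromosome 2, 84798828 to 84810335), was measured at 62.9, 67.4 and 69.2 FPKM in the PBS replicates and at 14.0, 14.2 and 15.5 FPKM in the cisplatin replicates. Every PBS library was above 4 times every cisplatin library, since the share left lay between 20.3% and 24.6% over the pairs. The means were 66.5 ± 3.23 and 14.6 ± 0.79 FPKM (SD, n = 3 each), with a log2 fold change of -2.12 (SE 0.054, 95% interval -2.24 to -1.99, limma adjusted p = 2.03e-07).

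Herc6, which encodes the HECT-type ligase (ENSMUSG00000029798, chromosome 6, 57581000 to 57664632), had the lowest level and among the smallest spreads. It was measured at 17.1, 16.6 and 17.0 FPKM in the PBS replicates and at 3.31, 3.25 and 3.34 FPKM in the cisplatin replicates. Because the gene is long, these values still rested on 496 to 2804 reads per library. The means were 16.9 ± 0.24 and 3.30 ± 0.044 FPKM (SD, n = 3 each), with 19.5% of the PBS level left and a log2 fold change of -2.06 (SE 0.042, 95% interval -2.16 to -1.96, limma adjusted p = 1.01e-07).

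Usp18, which encodes the ISG15 protease (ENSMUSG00000030107, chromosome 6, 121245906 to 121270917), was measured at 66.9, 65.2 and 66.1 FPKM in the PBS replicates and at 15.9, 15.5 and 16.3 FPKM in the cisplatin replicates. The libraries of each group lay within a narrow band and the bands were far apart. The means were 66.1 ± 0.86 and 15.9 ± 0.41 FPKM (SD, n = 3 each), with 24.0% of the PBS level left and a log2 fold change of -1.99 (SE 0.035, 95% interval -2.07 to -1.91, limma adjusted p = 6.70e-08). The gene that removes ISG15 was thus lower together with the genes that attach it.

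**Figure D1:**
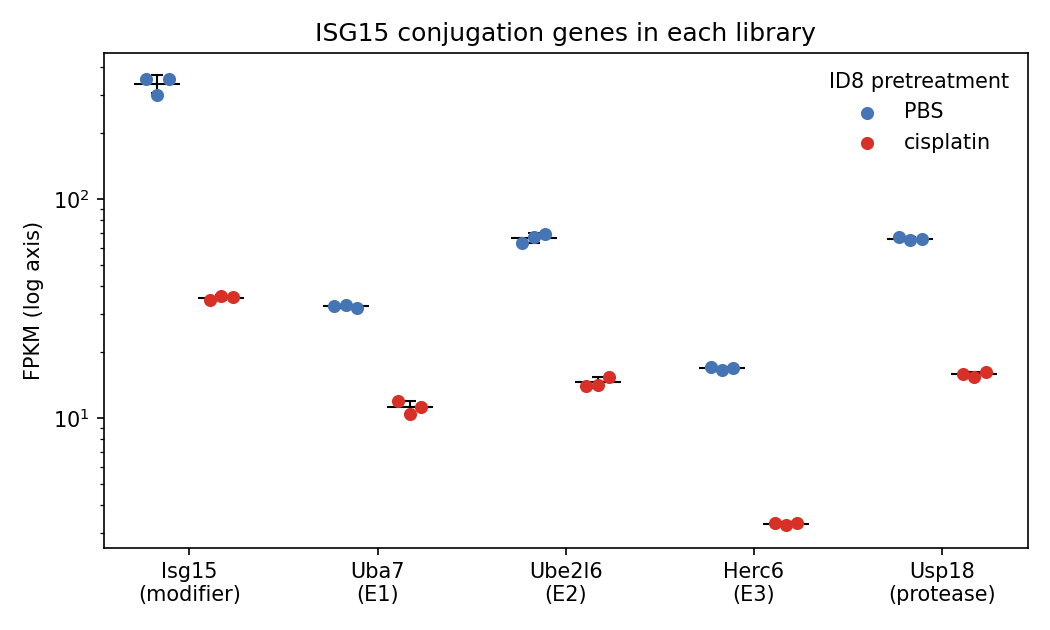
FPKM of each member (log axis) in the 3 PBS and the 3 cisplatin libraries, with points for libraries and black bars for the mean ± SD. In each member every cisplatin library lies below every PBS library, from 34.5 to 36.25 against 300 to 355 FPKM for Isg15 and from 3.25 to 3.34 against 16.6 to 17.1 FPKM for Herc6.

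In the table's annotation Isg15 and Ube2l6 overlap no other gene. Uba7, Herc6 and Usp18 overlap predicted genes (Gm20661 with Uba7, Gm19244 and Gm45193 with Herc6, Gm44148 with Usp18), of which the highest value in any library was 1.625 FPKM, for Gm44148. Whether strand was used in the counting is not given in the sources used here. Between 444 and 4720 reads lay behind every value of a member.

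The order of the members by level was nearly kept between the groups. With PBS, Isg15 was highest, followed by Ube2l6 and Usp18, whose ranges overlapped (62.9 to 69.2 and 65.2 to 66.9 FPKM), then Uba7 and Herc6. With cisplatin the order was Isg15, Usp18, Ube2l6, Uba7 and Herc6, and no neighbours overlapped. Usp18 and Ube2l6 were barely apart there, with the lowest Usp18 library at 15.48 and the highest Ube2l6 library at 15.47 FPKM. Herc6 stood well under Uba7 in both groups, by a factor of 1.88 to 1.99 within the PBS libraries and 3.21 to 3.63 within the cisplatin libraries.

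The balance between modifier and enzymes differed between the groups. Isg15 made up 62.2% to 66.3% of the summed FPKM of the 5 members in the PBS libraries and 43.3% to 45.5% in the cisplatin libraries. Per library, the FPKM of Isg15 was 4.60 to 5.37 times that of Usp18 with PBS and 2.18 to 2.34 times with cisplatin. Relative to Uba7, the same ratio was 9.07 to 11.1 with PBS and 2.88 to 3.47 with cisplatin.

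**Figure D2:**
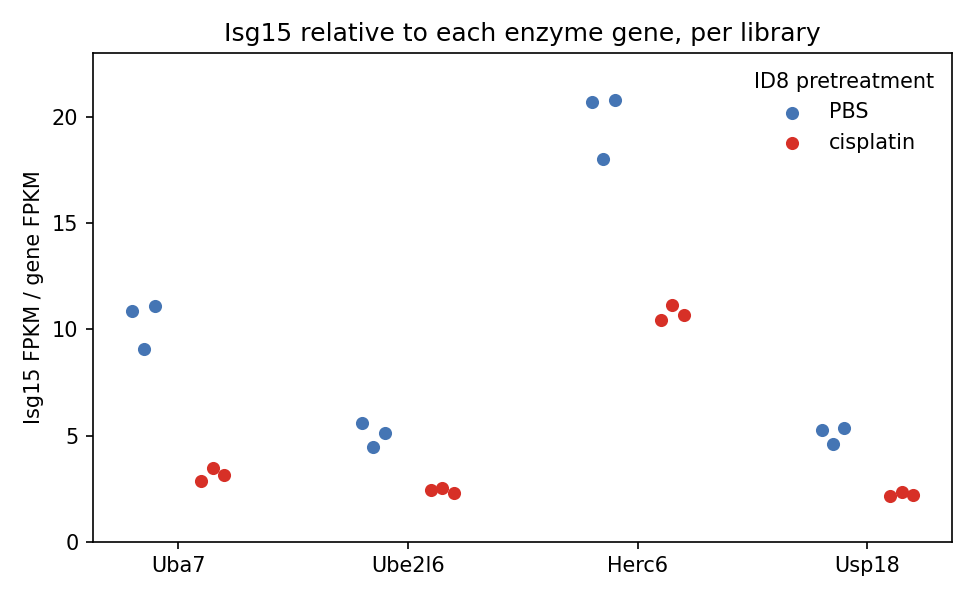
Isg15 FPKM divided by the FPKM of each enzyme gene in the same library, with a point for each of the 3 PBS and 3 cisplatin libraries. For all 4 enzyme genes the PBS points lie above the cisplatin points, for example 18.03 to 20.8 against 10.4 to 11.15 for Herc6.

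The sizes of the falls were compared in the 10 pairs of members by permuting the group labels of the libraries exactly, two-sided, on the log2 ratio of each pair. A design of 3 against 3 allows no exact p under 0.1 and so cannot pass 0.05. Isg15 fell further than each of the other 4 members, by between 1.09 (against Ube2l6, SE 0.10) and 1.75 (against Uba7, SE 0.12) on the log2 scale, and the log ratios of the groups did not overlap (exact p = 0.1, adjusted p = 0.125 over the 10 pairs). Uba7 fell by less than Ube2l6 (difference 0.66, SE 0.084), Herc6 (0.60, SE 0.053) and Usp18 (0.535, SE 0.051), again without overlap (exact p = 0.1, adjusted p = 0.125 each). Among Ube2l6, Herc6 and Usp18 the differences were small. That between Ube2l6 and Herc6 was -0.057 (SE 0.058, exact p = 0.3, adjusted p = 0.3) and that between Ube2l6 and Usp18 -0.13 (SE 0.056, exact p = 0.2, adjusted p = 0.222), both with overlap. Herc6 and Usp18 differed by -0.068 (SE 0.013, exact p = 0.1, adjusted p = 0.125). The order of these 3 depended on the scale, since with a pseudocount of 0.1 in place of 1 the log2 fold changes were -2.32 for Herc6, -2.18 for Ube2l6 and -2.05 for Usp18, and Herc6 was also below Ube2l6 with values rescaled to TPM and with voom.

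Each member was then set beside its relatives by family, most of which act in ubiquitin and the other ubiquitin-like systems. The tested Usp relatives include 5 (Usp2, Usp5, Usp14, Usp16 and Usp21) that are also on the list of other ISG15 genes described further on. Of 122 tested relatives, with a median log2 fold change of -0.074, 8 were called lower and 1 higher. The shares over all tested genes were 11.3% and 4.67%, so the relatives were not called lower more often than genes at large. The relatives called lower included Nedd4, Ube2r2, Ube2e2, Ube2h, Usp43, Usp53 and Usp54, of which Ube2h and Usp53 are named after their values were seen. Without PBS replicate 2 the number called lower was 5, and under scaling of each library by its Y-linked genes, which lowers the median of all tested genes, it was 56. In each family the pathway member had a lower log2 fold change than every relative tested, although Usp43 lay below Usp18 under 3 of the alternatives given below.

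Among 18 modifiers, which include ubiquitin, NEDD8, the SUMO proteins and the ATG8 group, the median log2 fold change was 0.11. The closest to Isg15 were Map1lc3a, which encodes an autophagosome protein (log2 fold change -0.82, SE 0.10, limma adjusted p = 0.000359), and Sumo2 (-0.49, SE 0.83, limma adjusted p = 0.628), whose libraries ranged from 2.78 to 33.4 FPKM with cisplatin. Without cisplatin replicate 2, Sumo2 was at -1.17 and was the closest to Isg15. The only modifier called was Rps27a, which encodes a fusion of ubiquitin and a ribosomal protein (log2 fold change 1.19, SE 0.16, limma adjusted p = 0.000600, but 0.21 on the log2 scale under scaling by the Y-linked genes). Both Sumo2 and Rps27a have processed copies elsewhere in the genome that can take reads from them. Isg15 had been exceeded by 1 of these modifiers with PBS and was exceeded by 7 with cisplatin. Ubd, which encodes another interferon-inducible modifier, stayed under the filter, at 0.668 to 0.828 FPKM with PBS and 0 to 0.065 FPKM with cisplatin (at most 12 reads).

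None of the 9 tested E1 genes was called, and their median log2 fold change was 0.20. Uba1, the E1 of ubiquitin, was at 109 ± 2.28 and 105 ± 3.08 FPKM (SD, n = 3 each) with PBS and cisplatin, a log2 fold change of -0.052 (95% interval -0.14 to 0.033, limma adjusted p = 0.234). The nearest to Uba7 were Uba3, of the NEDD8 system (log2 fold change -0.31, limma adjusted p = 0.000485), and Uba6 (-0.27, limma adjusted p = 0.00358), neither past the fold threshold. Under scaling by the Y-linked genes the values were -1.04 for Uba1, -1.23 for Uba3 and -1.15 for Uba6, beside -2.39 for Uba7.

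Of 31 Ube2 genes 3 were called lower. Ube2l3, the closest paralogue of Ube2l6 and an E2 of ubiquitin, was at 29.0, 31.2 and 27.7 FPKM in the PBS replicates and at 26.2, 23.2 and 23.4 FPKM in the cisplatin replicates (log2 fold change -0.26, SE 0.064, limma adjusted p = 0.00908), short of the fold threshold. The largest changes among the relatives of Ube2l6 were those of Ube2r2 (log2 fold change -1.145, limma adjusted p = 5.26e-06) and Ube2e2 (-1.13, limma adjusted p = 5.91e-05). Ube2e2 was a low gene, at 2.65 against 0.666 FPKM, and lay nearer to Ube2l6 with a pseudocount of 0.1 (-1.85 against -2.18), with TPM (-1.62 against -2.17) and with voom (-1.90 against -2.10), and at -0.95 with quantile normalisation. With PBS no Ube2 gene had a higher mean level than Ube2l6, and with cisplatin 16 had.

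Of 22 other HECT ligases 2 were called lower, and the closest to Herc6 was Nedd4 (log2 fold change -1.20, limma adjusted p = 3.81e-06). None of the 4 other HERC genes was called, and their log2 fold changes had both signs, at 0.093 for Herc1 (limma adjusted p = 0.171), 0.53 for Herc2 (limma adjusted p = 4.54e-05), -0.14 for Herc3 (limma adjusted p = 0.181) and -0.32 for Herc4 (limma adjusted p = 0.00213). Under scaling by the Y-linked genes all 4 were negative, between -1.24 for Herc4 and -0.38 for Herc2, beside -2.90 for Herc6. Of 42 other Usp genes 3 were called lower, with Usp43 (log2 fold change -1.73, limma adjusted p = 2.16e-06) and Usp54 (-1.05, limma adjusted p = 1.59e-05) next to Usp18. Usp43 was a low gene, at 4.201 against 0.569 FPKM, and it fell further than Usp18 with a pseudocount of 0.1 (-2.69 against -2.05), with values rescaled to TPM (-2.38 against -2.04) and with voom (-2.79 against -1.97).

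**Figure D3:**
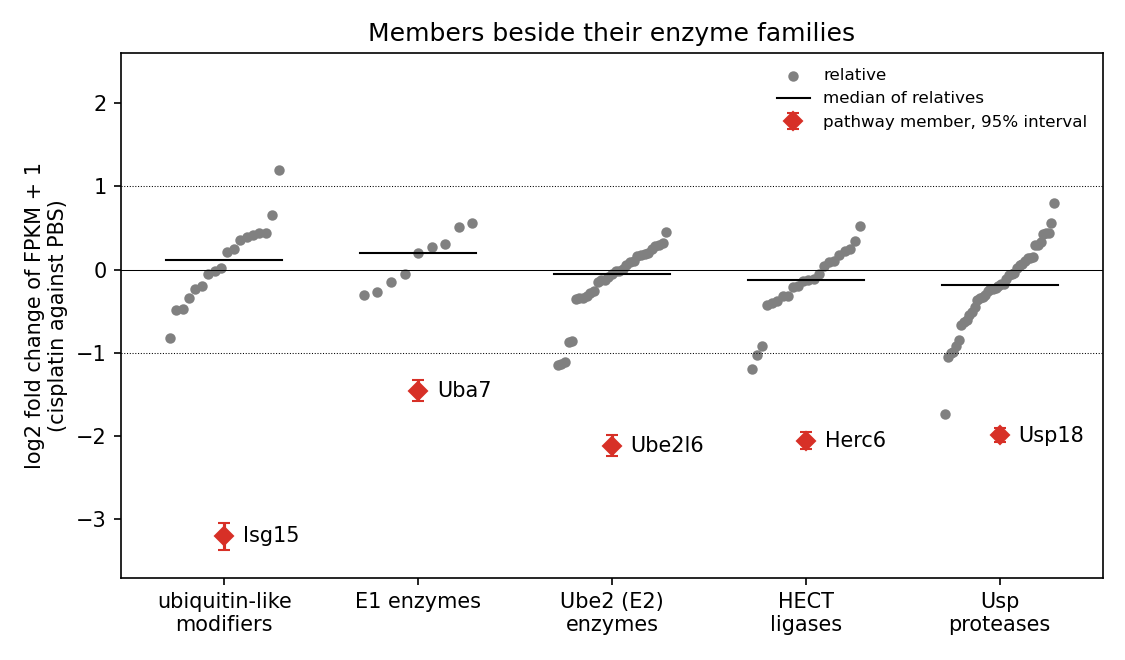
Log2 fold change (cisplatin against PBS, on FPKM + 1) of each member, as a diamond with its 95% interval, beside the tested relatives of its family as grey points, with a line at their median and dotted lines at the fold threshold. The members lie between -3.20 and -1.46 and the family medians between -0.19 and 0.20.

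Other genes of the pathway were counted from a list of 12, of which 10 were tested. Trim25, which encodes a RING-type ligase that can use ISG15 and also ubiquitinates the RNA sensor RIG-I, was the only one called. It was measured at 94.4, 96.3 and 95.6 FPKM in the PBS replicates and at 39.0, 39.8 and 39.5 FPKM in the cisplatin replicates (log2 fold change -1.25, SE 0.029, limma adjusted p = 1.43e-07). Arih1, another ligase reported for ISG15, was at 31.1 ± 0.72 and 28.01 ± 1.12 FPKM (SD, n = 3 each) with PBS and cisplatin (log2 fold change -0.15, limma adjusted p = 0.0182). The proteases Usp21 (log2 fold change -0.30, limma adjusted p = 0.0136) and Usp16 (0.33, limma adjusted p = 0.00153), which can also remove ISG15, did not reach the fold threshold and had opposite signs. The sign of Usp16 turned to -0.53 when libraries were scaled by their Y-linked genes. The median of the 10 was 0.087.

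Genes that carry the interferon signal to these promoters moved unequally. Of 16 tested, 4 were called lower and none higher, and the median was -0.20. Irf7, an interferon regulatory factor that is itself interferon-induced, was measured at 103, 96.0 and 107 FPKM in the PBS replicates and at 15.8, 16.1 and 16.4 FPKM in the cisplatin replicates (log2 fold change -2.59, SE 0.046, limma adjusted p = 7.06e-08). Stat2, whose product also recruits USP18 to the receptor, had a log2 fold change of -1.92 (SE 0.040, limma adjusted p = 1.01e-07), within the range of the members. Irf1 went from 55.4, 55.1 and 57.4 FPKM in the PBS replicates to 21.9, 22.96 and 21.99 FPKM in the cisplatin replicates (log2 fold change -1.29, SE 0.037, limma adjusted p = 2.87e-07). Irf9 had a log2 fold change of -0.24 (limma adjusted p = 0.00577) and was not called. In the other direction, Spi1 (log2 fold change 0.92, limma adjusted p = 8.46e-06), Irf5 (0.86, limma adjusted p = 2.52e-05) and Irf8 (0.48, limma adjusted p = 0.000126), transcription factors of myeloid cells, were above every PBS library in each cisplatin library. They were short of the fold threshold, turned negative under scaling by the Y-linked genes, and are named after their values were seen. The receptor genes Ifnar1 and Ifnar2, chosen after their values were seen, were at -0.025 each (95% intervals -0.13 to 0.079 and -0.15 to 0.105, limma adjusted p = 0.638 and 0.707). They were at 0.062 and 0.060 with voom and at -0.99 each under scaling by the Y-linked genes. Transcripts of interferons themselves were scarce. None of 21 ligand genes passed the filter, 10 were listed at 0 in every library, and the highest value was 0.678 FPKM (9 reads) for Ifnb1 in PBS replicate 1.

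Among 20 genes whose proteins are known to carry ISG15, 8 were called lower and none higher, and the median of the list was -0.77 on the log2 scale. The largest falls were those of Ifit3 (log2 fold change -3.82, SE 0.074, limma adjusted p = 8.36e-08) and Ifit1 (-3.44, SE 0.049, limma adjusted p = 4.49e-08), antiviral proteins that interferons induce and that may share reads with close paralogues. This list holds 3 genes of the signalling list.

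The genes whose pattern over the 6 libraries was most like the mean pattern of the members were Cpe, Hilpda, Gys1, Sparc and St6gal1, by the Euclidean distance between mean-centred log2(FPKM + 1) profiles (0.074 to 0.11) among 8269 candidates with a mean of at least 5 FPKM. Their log2 fold changes lay between -2.215 and -2.14. The same distance was 0.13 for Herc6, the nearest member, and 1.28 for Isg15, the farthest. With 2 groups this far apart, the distance reflects mainly the size of the difference between them. Of the 5 genes, Sparc is on the list of ID8 markers described next.

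The label of the cells was checked against markers, and most tested markers of ID8 cells were lower with cisplatin, as the members were. Macrophage genes were detected in all libraries, and all 14 tested of 15 were higher in every cisplatin library than in any PBS library, 8 of them called, with Marco (log2 fold change 2.38, limma adjusted p = 4.05e-06) and C1qb (2.36, limma adjusted p = 1.45e-06) first. Of all tested genes 35.2% were separated in this direction and 37.2% in the other, and 4.67% were called higher and 11.3% lower. Under scaling by the Y-linked genes 6 of the 14 turned negative, down to -0.79 for Cd68, and of the 8 called genes Marco (1.41) and C1qb (1.44) stayed past the fold threshold while the other 6 lay between 0.40 and 0.90. The summed level of the 15 macrophage genes was 2133 to 2160 FPKM with PBS and 5088 to 5237 FPKM with cisplatin. Lyz2 alone had means of 1161 and 3459 FPKM and so weighs most in these sums. In the main test the genes not called lay between 0.20 for Cd68 and 0.92 for Csf1r on the log2 scale. Of 18 genes of ID8, mesothelial and epithelial cells, 12 were tested, 9 were called lower and none higher, and their median log2 fold change was -1.96. Krt19 (log2 fold change -3.50, limma adjusted p = 7.18e-08) and Wt1 (-3.14, limma adjusted p = 5.39e-08) fell the most. Msln (99.9 FPKM with PBS and 61.0 FPKM with cisplatin, log2 fold change -0.70) and Col1a1 (2.97 and 1.87 FPKM, -0.47) were lower but not called. The summed level of the list was 1353 to 1458 FPKM in the PBS libraries and 259 to 277 FPKM in the cisplatin libraries, or 19.0% of the PBS mean, where 15.5% was left of the members. With PBS, Krt19 was the largest part of the first sum (587.6 FPKM) and Isg15 of the second (335.7 FPKM). Both shares therefore rest largely on single genes. None of the 18 was at 0 in all libraries of a group, although Igfbp5, Col1a2 and Krt7 stayed under 0.11 FPKM throughout. Of the 12 tested genes 11 were lower in every cisplatin library than in any PBS library, and the other was Krt14, a low keratin gene chosen here after its values were seen, at 1.03 to 1.24 FPKM with PBS and 2.135 to 2.84 FPKM with cisplatin (log2 fold change 0.72, limma adjusted p = 0.000791, not called), and its log2 fold change was 1.08 with a pseudocount of 0.1, 1.22 with voom and 0.091 under scaling by the Y-linked genes. The part of these transcripts in the values of the members was not tested.

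Genes of other marrow cells were detected too. All 8 neutrophil genes were tested and 5 were called higher, Mpo (log2 fold change 2.63, limma adjusted p = 6.00e-08) and Elane (1.86, limma adjusted p = 1.08e-07) the furthest, with a summed level of 4765 to 4932 FPKM with PBS and 8851 to 9101 FPKM with cisplatin. S100a9 (means 3105 and 5233 FPKM) and S100a8 (1423 and 2581 FPKM), neither called, made up most of these sums. Ly6g was low and overlapped between the groups, with means of 2.81 and 3.15 FPKM (log2 fold change 0.13, limma adjusted p = 0.349). Of 10 lymphocyte genes 6 were tested and 3 called higher, Ms4a1 (log2 fold change 1.58, limma adjusted p = 4.06e-07) and Cd79a (1.19, limma adjusted p = 2.17e-06) first, with a summed level of 115 to 123 and 269.8 to 276 FPKM. The 4 Y-linked genes, which mark male cells, summed to 19.5 to 22.7 FPKM with PBS and 41.6 to 42.8 FPKM with cisplatin, and Ddx3y was called (log2 fold change 1.15, limma adjusted p = 3.15e-06). The part of these cells in the values of the members was not tested. When each library was scaled by its Y-linked genes, the median of all tested genes moved to -0.83 and 85 genes were called higher. Of the neutrophil genes Mpo (1.66) stayed past the fold threshold, Elane was at 0.88 and Ly6g, S100a8 and S100a9 turned negative, and the B cell genes Ms4a1 and Cd79a were at 0.615 and 0.199. This scaling divides all genes of a library by the same factor, here larger with cisplatin, so it could only lower the members. They lay between -4.18 for Isg15 and -2.39 for Uba7. The factor rests on 4 genes whose log2 fold changes ran from 0.55 for Uty to 1.15 for Ddx3y.

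**Figure D4:**
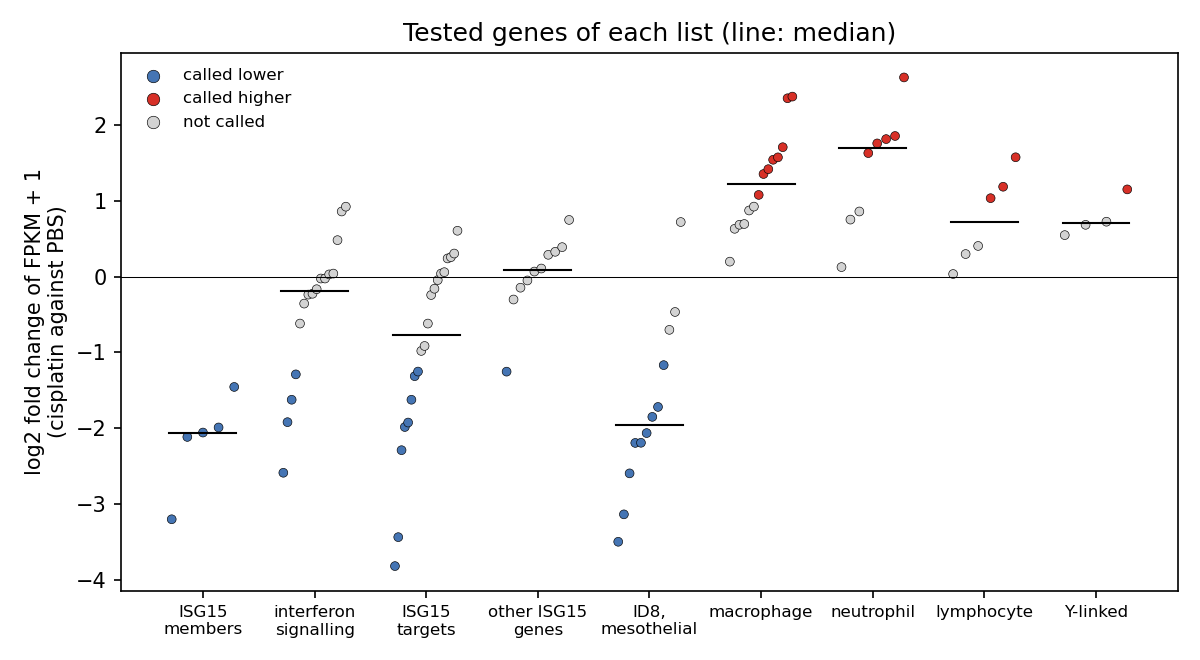
Log2 fold change (cisplatin against PBS, on FPKM + 1) of every tested gene of the pathway, the related lists and the cell type markers, coloured by call, with a line at the median of each list. The members (median -2.06) and the ID8 and mesothelial genes (-1.96) lie low, and the macrophage (1.22) and neutrophil genes (1.69) lie high, although some of the last 2 lists turn negative under scaling by the Y-linked genes.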

How the data were processed

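The deposited table holds FPKM for 54532 mouse genes in 6 libraries of poly-T selected RNA. The submitters' processing notes name fastp, HISAT2 2.0.5, featureCounts 1.5.0-p3 and the build mm10, while the study's methods name LifeScope for alignment and counting, and which of these made the FPKM values that the authors deposited was not resolved. Coordinates are those of the table, and all 5 members had the same symbol and coordinates in GENCODE M21 (GRCm38), where 98.3% of the 54409 identifiers found had the coordinates of the table.

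The deposited values are FPKM, so the main test was limma on a log scale and not the study's DESeq2. Multiplied by gene length, values under 200 reads came in whole steps (tolerance 0.02) in 100% of cases, which gave the reads quoted and the input of limma voom. Genes with at least 1 FPKM in at least 3 of 6 libraries were tested on log2(FPKM + 1) with limma 3.58.1 under R 4.3.3 (lmFit, eBayes with a trend, group as the only term), with Benjamini-Hochberg adjustment over 13441 genes, and the procedure was tested on simulated data. Exact permutation tests used scipy 1.17.1.

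The members and lists were chosen with earlier results of these data known. Named were the members, 10 fixed genes (Stat2, Irf9, Irf7, Irf1, Trim25, Arih1, Usp16, Usp21, Ube2l3 and Uba1), up to 2 called genes with the largest change per list, the 2 relatives closest to each member (1 gene that this rule names is not reported here), and the 5 genes of most similar pattern. Herc1 to Herc4, Usp2, Usp5, Usp14, Ubd, Cd68, Csf1r, Lyz2, Ly6g, S100a8, S100a9, Uty, Msln, Col1a1 and the weak ID8 markers were named after their values were seen. Replicate numbers are shared between the groups, but no source ties equal numbers to a shared preparation, and the deviations of same-numbered libraries from their group means correlated at -0.10, -0.086 and -0.024. The 19 alternatives covered the pseudocount, filters, scaling, test, threshold, replicate block and leaving out each library.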

Additional observations from a re-analysis of the deposited data

How the results depend on the processing

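All 5 members were called lower in each of the 19 alternatives, with adjusted p-values up to 0.000749. Their log2 fold changes ranged from -4.18 to -3.15 for Isg15, -2.39 to -1.37 for Uba7, -3.07 to -2.06 for Ube2l6, -2.90 to -1.96 for Herc6 and -2.95 to -1.94 for Usp18, the lowest of each under scaling by the Y-linked genes. That scaling lowers the cisplatin libraries relative to PBS, so it could hardly have undone these calls. Adding the replicate block gave 1515 genes lower and 625 higher and changed no call of a member. Leaving out each library gave -3.28 to -3.16 for Isg15, -1.50 to -1.41 for Uba7, -2.16 to -2.09 for Ube2l6, -2.07 to -2.05 for Herc6 and -2.01 to -1.97 for Usp18.

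Against 1514 genes lower and 628 higher, scaling by the Y-linked genes gave 5181 and 85, the adjusted p alone 4721 and 4424, and limma treat, which tests against the fold threshold itself, 982 and 240. A pseudocount of 0.1 gave 973 and limma voom 1227 higher. Genes called higher were 29.3% of the calls, but 39.3% with quantile normalisation (under which the overall median was 0.10), 39.7% with voom and 1.61% with Y-linked scaling. Under Y-linked scaling 4 of the other ISG15 genes, 9 signalling genes, 14 ISG15 targets and 56 relatives were lower. With the adjusted p alone these numbers were 3, 9, 13 and 51. Against 8 relatives called lower, a filter at 5 FPKM and quantile normalisation each gave 4, limma treat 1, and leaving out each library 5 to 9. A higher filter tests fewer genes, the adjusted p alone drops the fold threshold and treat is stricter by construction, and otherwise the cause was not tested. Precision rests on 3 libraries per group, and counting error is large only for genes with few reads, such as the interferon genes.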
